A study of Homo sapiens with 24 samples.

Results

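The carcinoembryonic antigen-related cell adhesion molecules (CEACAMs) were examined through 5 members, CEACAM1, CEACAM5, CEACAM6, CEACAM7 and CEACAM19, taken by gene symbol from the 18889 genes of the normalised table. All 5 have a row there. They were followed in 24 RNA-seq samples of 3 human breast cancer cell lines labelled estrogen receptor (ER) positive. These were HCC1500, MDA-MB-175 and ZR-75-30, each kept in low glucose (5 mM) or high glucose (25 mM, a model of hyperglycemia) for 48 hours, with 4 replicates in each of the 6 groups. By the study's methods all cells were without serum and were first conditioned in low glucose, so this is shared by both arms. Each line is 1 model of 1 tumor, and no mannitol group was among these 24 samples, so glucose and osmolarity cannot be told apart. The labels number the replicates without saying how the flasks were separated, and p-values measure the spread between these samples only.

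CEACAMs are immunoglobulin-superfamily glycoproteins of the cell surface that bind each other, on the same cell or between neighbouring cells, and that several bacterial adhesins use as receptors. CEACAM1 spans the membrane and carries inhibitory tyrosine motifs in its long cytoplasmic form, whereas CEACAM5, CEACAM6 and CEACAM7 are held by a glycosylphosphatidylinositol (GPI) anchor. CEACAM5 is the carcinoembryonic antigen measured in serum as a tumor marker, CEACAM6 is its close relative on epithelial cells and granulocytes, and CEACAM7 is best known from the apical surface of colon epithelium. CEACAM19 is a more distant transmembrane relative. The family lies beside the pregnancy-specific glycoprotein (PSG) genes, its secreted relatives.

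The genes sit on chromosome 19, given here on GRCh37 by matching the deposited gene IDs to the GENCODE release 44 annotation lifted to that build. CEACAM7 (ENSG00000007306, 42177231 to 42210895, minus strand), CEACAM5 (ENSG00000105388, 42212504 to 42234353, plus strand) and CEACAM6 (ENSG00000086548, 42254885 to 42276116, plus strand) follow each other. CEACAM1 (ENSG00000079385) lies at 43011456 to 43065386 on the minus strand and CEACAM19 (ENSG00000186567) at 45165545 to 45187631 on the plus strand.

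Because these genes are close copies, paralogs may share reads, and the stretch below shows how close they are. It is the longest identical run between the coding sequences of CEACAM5 and CEACAM6, 65 bases within exon 4 of each (GRCh37 chr19:42219617-42219681 and chr19:42265925-42265989, plus strand), set beside the best matching stretch of CEACAM1 (exon 4, chr19:43025561-43025625, minus strand). Capitals in the CEACAM1 line mark its 8 mismatches.
CEACAM5: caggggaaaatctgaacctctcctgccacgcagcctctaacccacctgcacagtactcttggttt
CEACAM6: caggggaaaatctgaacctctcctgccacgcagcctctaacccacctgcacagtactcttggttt
CEACAM1: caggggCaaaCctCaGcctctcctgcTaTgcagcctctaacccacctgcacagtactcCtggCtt
A read that falls wholly inside this stretch cannot be assigned to CEACAM5 or CEACAM6 alone. The longest run was 68 bases between CEACAM5 and CEACAM1 and 71 bases between CEACAM6 and CEACAM1. With CEACAM3, a relative outside the 5 members, it was 78 bases for CEACAM5, 74 for CEACAM1 and 66 for CEACAM6. Of the 50-base windows in the annotated transcripts, 2.45% for CEACAM5, 4.2% for CEACAM6 and 3.28% for CEACAM1 also occur in another gene. CEACAM7 shared none, with at most 36 identical coding bases to CEACAM5, and CEACAM19 shared 0.569%, none of them with the relatives examined. At 100 bases, CEACAM1 was the single member with any shared window (0.301%, all with CEACAM3). Exon bases also overlap other genes, 139 of CEACAM5 and 138 of CEACAM6 with ENSG00000267881 (named CEA in the table, same strand), 185 of CEACAM1 with LIPE-AS1 on the opposite strand and 121 of CEACAM19 with PVR. Where an overlapping gene was called with glucose, its values are given beside the member. Values of CEACAM1, CEACAM5, CEACAM6 and CEACAM19, and of CEACAM3, are therefore uncertain by the reads that the counting may have split, while CEACAM7 has no such windows.

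**Figure D1:**
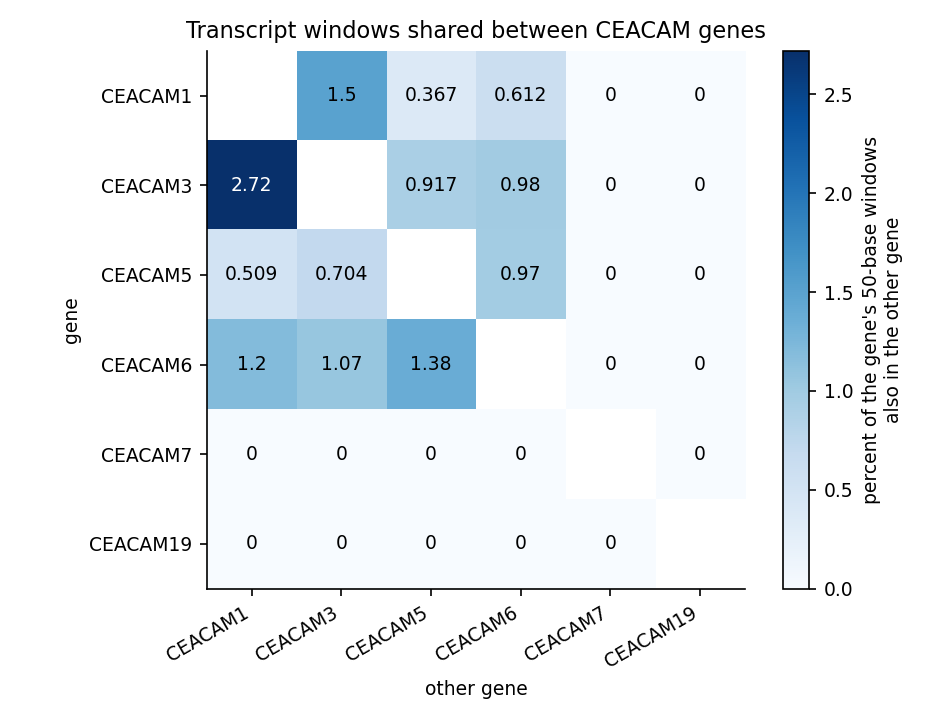
Percent of the 50-base windows in the transcripts of each gene (rows) that also occur in the transcripts of another gene (columns), for the 5 members and CEACAM3. Shares among CEACAM1, CEACAM3, CEACAM5 and CEACAM6 run from 0.367% to 2.72%, and CEACAM7 and CEACAM19 share none with the others.

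The 250 bases before the transcription start are shown for the 4 members present in the RefSeq promoter table (GRCh38.p14), since members that lie side by side differed in their response to glucose. Capitals mark matches on either strand to CACGTG (the E-box), GGGCGG (the GC box), CACCC and an interferon-type element (GAAA repeated after any 2 bases).
CEACAM7 (chr19:41688271-41688520, minus strand): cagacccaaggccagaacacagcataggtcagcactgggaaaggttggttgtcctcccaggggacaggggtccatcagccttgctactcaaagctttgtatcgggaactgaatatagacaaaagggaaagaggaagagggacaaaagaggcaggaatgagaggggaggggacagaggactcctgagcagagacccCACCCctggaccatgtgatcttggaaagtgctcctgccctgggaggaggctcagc
CEACAM5 (chr19:41708376-41708625, plus strand): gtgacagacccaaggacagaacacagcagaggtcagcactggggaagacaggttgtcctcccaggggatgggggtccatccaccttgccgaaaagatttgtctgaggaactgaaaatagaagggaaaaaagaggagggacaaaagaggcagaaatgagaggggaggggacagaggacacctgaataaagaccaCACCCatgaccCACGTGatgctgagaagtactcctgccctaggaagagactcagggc
CEACAM6 (chr19:41755280-41755529, plus strand): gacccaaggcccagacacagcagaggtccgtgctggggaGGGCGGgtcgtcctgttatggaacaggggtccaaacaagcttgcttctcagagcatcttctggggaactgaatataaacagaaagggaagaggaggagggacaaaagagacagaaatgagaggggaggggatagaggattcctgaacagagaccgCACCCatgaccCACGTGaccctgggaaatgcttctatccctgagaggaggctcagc
CEACAM1 (chr19:42528482-42528731, minus strand): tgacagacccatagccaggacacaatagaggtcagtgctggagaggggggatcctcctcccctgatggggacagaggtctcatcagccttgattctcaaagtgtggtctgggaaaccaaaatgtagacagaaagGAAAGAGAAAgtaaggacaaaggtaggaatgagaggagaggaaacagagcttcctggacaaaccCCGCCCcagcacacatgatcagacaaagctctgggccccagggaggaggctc
The E-box starts at -46 in CEACAM5 and at -45 in CEACAM6 and was not matched in the CEACAM7 and CEACAM1 windows. A CACCC element stands 11 bases before each of those E-boxes, at -57 and -56, and at -55 in CEACAM7. A GC box was matched at -211 in CEACAM6 and, read on the other strand, at -52 in CEACAM1, which also held the interferon-type element at -116. No match overlapped another in these windows. Over the 300 bases given for each of 35116 RefSeq promoters (250 before and 50 after the start), 7.26% held the E-box, 45% the GC box, 59.9% CACCC and 3.57% the interferon-type element. These are matches of letters, and the members with and without them are given with their values below.

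Library depth was 9140024 to 17998819 recovered reads per sample, and values are reads divided by 1 factor per sample, so that 3 reads, used as the detection floor, were worth 0.95 to 2.29. HCC1500 high-glucose replicate 3 stood apart from its group, with a mean correlation to its own group of 0.944 over 13310 genes (0.990 to 0.995 in the other samples). The within-line results of the members and the list counts in HCC1500 are given with and without it. Other HCC1500 values include it unless stated. Depth in HCC1500 did not overlap between the arms (13190982 to 17998819 reads in low glucose and 9423472 to 12140912 in high glucose). The epithelial identity of the lines was checked with 11 luminal markers, of which 10 or 11 had a mean of at least 10 in every group. CDH1 (E-cadherin) was far lower in ZR-75-30, at 55.6 ± 6.51 against 6499 ± 11.1 in MDA-MB-175 and 8223 ± 41.4 in HCC1500 (low glucose, SD, n = 4). ESR1, the estrogen receptor, was highest in HCC1500 at 3178 ± 36.1, with 618 ± 20.3 in ZR-75-30 and 335 ± 3.59 in MDA-MB-175 (low glucose, SD, n = 4). PGR, the progesterone receptor, was under the floor in MDA-MB-175. In low glucose it was also under the floor in ZR-75-30 (0.614 ± 0.0999), against 655 ± 27 in HCC1500. Of 7 granulocyte markers, CSF3R and CEACAM3 were in the table and summed to 45.4 at most. Of 4 leukocyte markers the table held CD68 alone, and of 5 colon epithelium markers VIL1 alone, which ranged from 11.9 to 128 in HCC1500 high glucose and was highest in replicate 3. Marker values that moved with glucose are given beside the members of each line, and their part in the results was not tested. In bulk RNA, fewer cells that express a gene and less RNA per cell cannot be told apart.

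In MDA-MB-175 all 5 members rose with high glucose. The 5 genes passed the filter on low values and the limma test on log2(value + 1) at an adjusted p under 0.05, against 25.7% of the 17029 genes tested that were called and 11.9% that were called higher, and their median log2 change was 0.78 beside -0.02 over all genes. No member overlapped between the arms, compared with 26.6% of all genes tested.

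Several markers of other cells were called higher in MDA-MB-175 as well. These were the granulocyte markers CEACAM3, described below, and CSF3R (8.06 to 18.4, limma adjusted p = 0.00466), the leukocyte marker CD68 (2.53 to 6.82, 0.0288) and the endothelial marker CDH5 (18.8 to 29.2, 0.0102). CEACAM8, MPO and ELANE of the granulocyte list, PTPRC of the leukocyte list and PECAM1 of the endothelial list were not analysed here. Of the fibroblast markers 0 of 4 were higher and 1 was lower. Of the luminal markers, 1 was higher and 5 lower of 10 tested, and their summed values were 76846 to 87794 in low glucose and 75619 to 81988 in high glucose.

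CEACAM5, the carcinoembryonic antigen, had the highest level of the members per kb of exon in this line. Its normalised values were 5304, 5077, 5404 and 5130 in low glucose and 7971, 8295, 7910 and 7699 in high glucose. Every high-glucose sample lay above every low-glucose sample, and the means were 5229 ± 152 and 7969 ± 246 (SD, n = 4 each). CEACAM5 was thus 1.52-fold higher, 0.61 ± 0.04 on the log2 scale (± SE here and below, limma adjusted p = 1.2e-08).

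CEACAM6 was at 1675, 1658, 1746 and 1773 in low glucose and at 2917, 2893, 2819 and 2770 in high glucose. The arms were clearly apart and the spread within each was small. Its mean went from 1713 ± 55.1 to 2850 ± 67.5, a log2 change of 0.73 ± 0.04 (limma adjusted p = 1.2e-09). The gene named CEA, which shares exon bases with CEACAM5 and CEACAM6, was also higher (199 ± 5.87 to 267 ± 55.6, log2 0.40 ± 0.12, limma adjusted p = 0.0205).

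For CEACAM1, the inhibitory receptor of the family, low-glucose samples had 369, 394, 355 and 359 and high-glucose samples had 634, 649, 617 and 637. The arms did not overlap. The mean rose 1.72-fold, from 369 ± 17.5 to 634 ± 13, with a log2 change of 0.78 ± 0.05 (limma adjusted p = 6.6e-09).

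CEACAM7 was some way lower, at 40.5, 57.6, 50.1 and 51.4 in low glucose and 88.6, 96.6, 92.5 and 95.2 in high glucose. Its log2 change was 0.90 ± 0.11 (limma adjusted p = 1.6e-05). Whether shared reads contribute to the changes of the members was not tested. CEACAM19 was the lowest, with 5.22, 8.04, 5.12 and 4.58 in low glucose and 12.9, 8.52, 13.7 and 16.3 in high glucose, from 43 and 112 reads in all. The highest low-glucose sample and the lowest high-glucose sample were close, 8.04 and 8.52. The log2 change was 1.03 ± 0.25 (limma adjusted p = 0.0064). PVR, which shares exon bases with CEACAM19, was higher too (343 ± 23.9 to 461 ± 21.6, log2 0.43 ± 0.06, limma adjusted p = 4.3e-05).

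**Figure D2:**
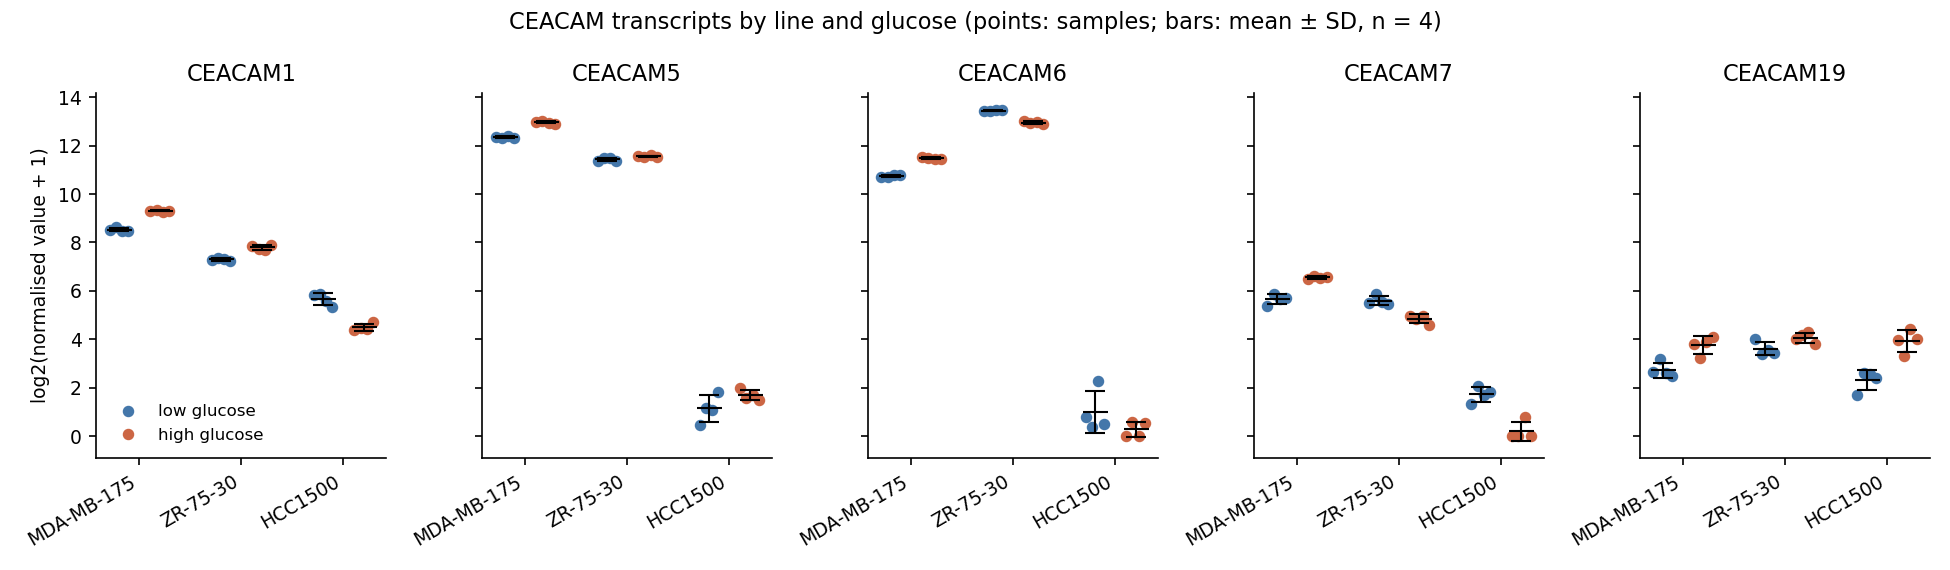
Normalised values of the 5 members in each of the 24 samples, as log2(value + 1), by line and glucose. Points are samples and bars are the mean ± SD of 4 replicates. All members are higher with high glucose in MDA-MB-175, CEACAM6 and CEACAM7 are lower in ZR-75-30, and CEACAM5 and CEACAM6 lie near the floor in HCC1500.

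In ZR-75-30 the members split. CEACAM1 and CEACAM5 rose, CEACAM6 and CEACAM7 fell, and CEACAM19 did not pass the test. All 5 were tested and 4 were called, in a line where 46% of 15834 genes were called, and 4 of the 5 did not overlap between arms, compared with 42% of all genes. The median change over the members was 0.13 beside 0.01 over all genes.

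Among the luminal markers of ZR-75-30, 1 was higher and 7 were lower of 11 tested, with a median log2 change of -0.31. TFF1, an estrogen-induced secreted peptide, fell from 1803 ± 51.9 to 391 ± 9.08 (limma adjusted p = 3.0e-17), and the summed markers were 72927 to 77652 in low glucose and 50309 to 57051 in high glucose. The leukocyte marker CD68 rose from 5.66 ± 1.06 to 37.7 ± 4.36 (limma adjusted p = 1.3e-08). The granulocyte markers were not called and summed to at most 8.07, and CDH5 was at or near 0.

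CEACAM6 had the highest level of any member in any line per kb of exon. Its values were 10992, 11130, 11277 and 11308 in low glucose and 8314, 7728, 7952 and 7694 in high glucose. All high-glucose samples were lower. The mean was 11177 ± 145 against 7922 ± 285, so that CEACAM6 fell by 0.50 on the log2 scale (SE 0.04, limma adjusted p = 2.8e-09).

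Its neighbour CEACAM5 moved little and the other way. The low-glucose samples were 2661, 2880, 2870 and 2648 and the high-glucose samples 3048, 2948, 3092 and 2996. They did not overlap, but the gap between 2880 and 2948 was smaller than the range within either arm. The change was 1.09-fold, or 0.13 ± 0.04 on the log2 scale (limma adjusted p = 0.00915). Without the intensity trend in the limma fit its adjusted p was 0.0631.

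CEACAM1 was at 156, 164, 158 and 149 in low glucose and at 229, 213, 208 and 236 in high glucose. The arms were apart, and the log2 change was 0.49 ± 0.06 (limma adjusted p = 4.8e-06). CEACAM7 had 44.3, 56.9, 46.1 and 42.8 in low glucose and 30.7, 27.7, 30.6 and 23.3 in high glucose. It was lower in every high-glucose sample and fell by 0.74 on the log2 scale (SE 0.15, limma adjusted p = 5.5e-04).

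CEACAM19 overlapped between the arms, with 15, 9.67, 10.8 and 9.92 in low glucose and 15.1, 16.9, 18.7 and 13 in high glucose. Its change of 0.46 ± 0.22 on the log2 scale missed the threshold (limma adjusted p = 0.102), and without the intensity trend the adjusted p was 0.049. PVR was at 265 ± 7.84 and 290 ± 16.2 (limma adjusted p = 0.0682).

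HCC1500 held little CEACAM RNA. CEACAM1 fell, CEACAM19 rose, CEACAM7 fell from a level near the floor, and CEACAM5 and CEACAM6 stayed near the floor in both arms. Of the 5 members 4 passed the filter and 3 were called, where 20.5% of 16361 genes were called. Those 3 did not overlap between arms, compared with 32.4% of all genes. Without high-glucose replicate 3 the same 3 of 4 were called, where 58.5% of genes were. CEACAM7 passed the filter through its low-glucose samples, so its call was close to fixed in advance and adds no weight to these counts. Of the 11 luminal markers 0 were higher and 1 was lower, or 4 and 7 without that replicate, and CD68 was at 0.943 and 2.48 (limma adjusted p = 0.0776, or 0.0383 without it).

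CEACAM1 was at 56.6, 57.8, 46.8 and 40 in low glucose and at 20.1, 20.9, 20.8 and 25.4 in high glucose. All high-glucose samples were lower, opposite to the other lines. The mean went from 50.3 ± 8.44 to 21.8 ± 2.43, and CEACAM1 fell by 1.16 on the log2 scale (SE 0.16, limma adjusted p = 0.0016). Without high-glucose replicate 3 the log2 change was -1.14 (limma adjusted p = 3.9e-06).

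CEACAM19 was at 2.28, 5.08, 4.99 and 4.31 in low glucose and at 14.7, 8.95, 20.8 and 15.2 in high glucose. The arms were apart, and the highest sample was replicate 3. The log2 change was 1.61 ± 0.30 (limma adjusted p = 0.00658), or 1.44 without that replicate (adjusted p = 3.7e-04). The overlapping gene PVR was higher as well (364 ± 16.2 to 462 ± 41.1, log2 0.34 ± 0.09, limma adjusted p = 0.0257), or 0.28 without replicate 3 (limma adjusted p = 2.9e-05).

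CEACAM7 gave 1.52, 3.18, 2.3 and 2.58 in low glucose and 0.743 in high-glucose replicate 3, with 0 in the other high-glucose samples. In reads this was 26 against 1, a ratio of 0.0571 with an exact 95% counting interval of 0.00139 to 0.347, and the limma adjusted p was 0.00795. Without replicate 3 there were 0 reads in high glucose, and the exact 95% counting interval of the ratio was 0 to 0.278 (limma adjusted p = 0.00111). With the group set at a floor of 3 reads, CEACAM7 was 4.75-fold lower. That floor value leaves out the counting error of the low-glucose reads. Intervals here cover counting error only. Because CEACAM7 passed the filter through its low-glucose samples, its adjusted p-values here are no independent test of the fall.

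CEACAM5 was at 0.38, 1.27, 1.15 and 2.58 in low glucose and 2.95, 1.99, 2.23 and 1.85 in high glucose, from 14 and 16 reads. The arms overlapped and no difference was detectable at this depth (limma adjusted p = 0.277, or 0.266 without high-glucose replicate 3, ratio of reads 1.7, interval 0.775 to 3.75). CEACAM6 did not pass the filter, with 0.76, 0.318, 3.83 and 0.431 in low glucose and 0, 0.497, 0 and 0.462 in high glucose. Of its 14 reads in low glucose, 10 came from replicate 3. The 2 reads in high glucose gave a ratio of 0.212 (interval 0.0234 to 0.923), or 0.261 without high-glucose replicate 3 (interval 0.0287 to 1.13).

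**Figure D3:**
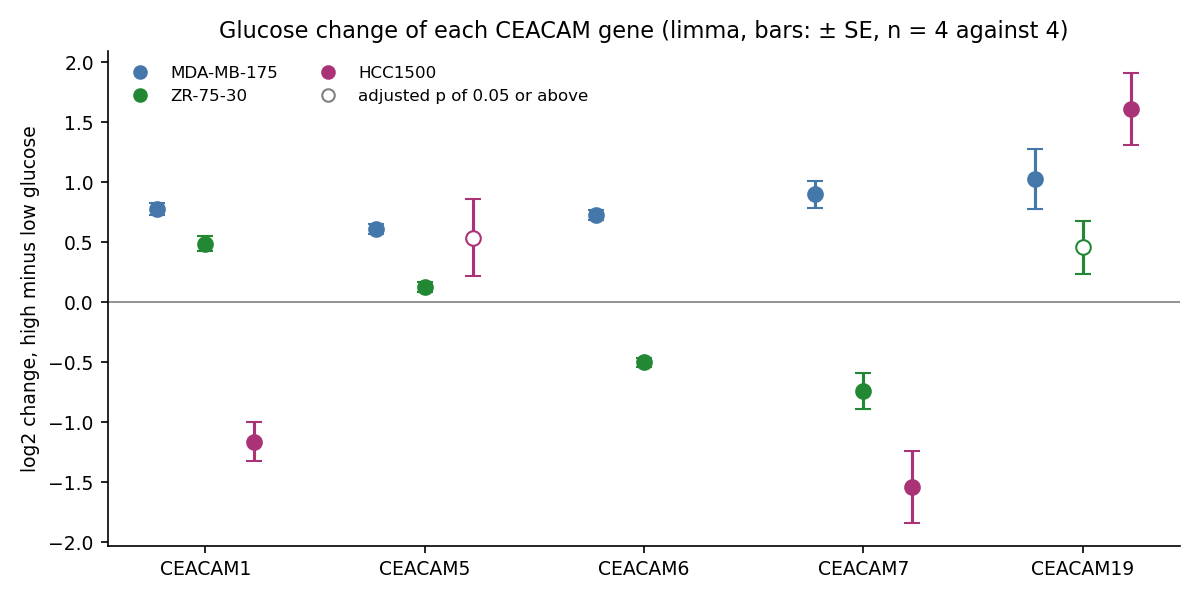
The log2 change of each member from low to high glucose in each line, with the SE from limma (4 against 4 samples). Filled points had an adjusted p under 0.05, and CEACAM6 in HCC1500 is absent because it did not pass the filter. CEACAM1 is at 0.78 and 0.49 in MDA-MB-175 and ZR-75-30 but at -1.16 in HCC1500, and CEACAM7 is at 0.90 in MDA-MB-175 but at -0.74 and -1.54 in the other lines.

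Whether a member's response differed between the lines was tested in 1 limma model of all 24 samples. The F test was called for 4 of the 5 members, where 29.3% of 18144 genes were called. The adjusted p was 6.2e-10 for CEACAM1, 9.6e-07 for CEACAM7, 0.00526 for CEACAM6, 0.0461 for CEACAM19 and 0.221 for CEACAM5. Without HCC1500 high-glucose replicate 3 the limma adjusted p of CEACAM19 was 0.0663, and it lay at or above 0.05 in 15 of the 24 fits that each left out 1 sample (0.0527 to 0.102). It also missed the threshold with a pseudocount of 0.1 (0.0539) or 5 (0.0611). The outcome for CEACAM5 depended on the settings. It was called with a pseudocount of 5 (limma adjusted p = 0.00162), in CPM, where each sample is scaled to the same total (5.3e-04), by edgeR (0.00152) and by DESeq2 (2.9e-17) on the recovered reads, and, of the 24 fits that left out 1 sample, in the one without HCC1500 low-glucose replicate 4 (limma adjusted p = 0.0123).

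CEACAM1 responded differently in HCC1500. Its change was higher by 1.94 ± 0.13 on the log2 scale in MDA-MB-175 than in HCC1500 (limma adjusted p = 8.7e-10) and by 1.66 ± 0.13 in ZR-75-30 than in HCC1500 (6.8e-09), where 17.7% and 25.2% of all genes were called. The changes in MDA-MB-175 and ZR-75-30 differed by 0.28 ± 0.13 (limma adjusted p = 0.199).

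CEACAM7 differed between all 3 pairs of lines, by 1.64 ± 0.26 between MDA-MB-175 and ZR-75-30 (limma adjusted p = 1.8e-04, 11.2% of genes called), by 2.44 ± 0.26 between MDA-MB-175 and HCC1500 (6.4e-07) and by 0.80 ± 0.26 between ZR-75-30 and HCC1500 (0.0268). On the HCC1500 side, both differences from that line rest on 26 reads in low glucose and 1 in high glucose. The F test of CEACAM7 draws on the same reads. The difference between ZR-75-30 and HCC1500 turned to -0.16 with a pseudocount of 5. It missed the threshold when any of 8 of the 24 samples was left out (limma adjusted p 0.0502 to 0.0646). CEACAM6 differed by 1.23 ± 0.35 between MDA-MB-175 and ZR-75-30 (limma adjusted p = 0.0244) and by 1.45 ± 0.35 between MDA-MB-175 and HCC1500 (0.00521). On the HCC1500 side the latter rests on 14 reads in low glucose, 10 of them from replicate 3, and 2 in high glucose. CEACAM6 did not pass the filter within that line.

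In that model CEACAM5 and CEACAM6 share 1 estimate of spread over groups with many reads and the HCC1500 groups with few. A fit on the 16 samples of MDA-MB-175 and ZR-75-30 was therefore added after the values were seen. In it the response was higher in MDA-MB-175 by 0.48 ± 0.05 for CEACAM5 (limma adjusted p = 1.0e-06), by 1.23 ± 0.05 for CEACAM6 (1.9e-12), by 0.28 ± 0.07 for CEACAM1 (0.00597) and by 1.64 ± 0.18 for CEACAM7 (1.2e-06). CEACAM19 differed by 0.57 ± 0.32 (limma adjusted p = 0.219). Of 17608 genes tested in this fit, 24.3% were called.

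Per kb of exon, MDA-MB-175 and ZR-75-30 held CEACAM5 and CEACAM6 in opposite order. In MDA-MB-175 low glucose CEACAM5 was at 1312 per kb and CEACAM6 at 580, and in ZR-75-30 low glucose they were at 694 and 3781. CEACAM6 ranked 62 in ZR-75-30 low glucose and CEACAM5 ranked 125 in MDA-MB-175 low glucose among the 18183 genes with an annotated length, and with high glucose they ranked 89 and 82. The other members were lower. In MDA-MB-175 high glucose CEACAM1 was at 115 per kb, CEACAM7 at 35.1 and CEACAM19 at 2.48.

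The ratio of CEACAM6 to CEACAM5 per kb was 0.426, 0.44, 0.436 and 0.466 in MDA-MB-175 low glucose and 0.493, 0.47, 0.481 and 0.485 in high glucose. In ZR-75-30 it was 5.57, 5.21, 5.3 and 5.76 in low glucose and 3.68, 3.53, 3.47 and 3.46 in high glucose. The ratio thus moved up slightly in the first line and down in the second, without overlap in either. The exact two-sided permutation p was 0.0286 in each line, the smallest that 4 against 4 samples can give, and 0.0343 after adjustment over 6 ratios, which were chosen after the values were seen. Within a sample this ratio does not depend on the scaling factor.

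The ratio of CEACAM1 to CEACAM5 rose in both lines. MDA-MB-175 went from 0.051 ± 0.00358 to 0.0574 ± 0.00156, and ZR-75-30 from 0.0409 ± 0.00101 to 0.0529 ± 0.00356 (SD, n = 4 each, exact permutation p = 0.0286 in each, adjusted 0.0343). CEACAM7 to CEACAM5 fell in ZR-75-30, from 0.0258 ± 0.00263 to 0.014 ± 0.00157 (exact permutation p = 0.0286, adjusted 0.0343). In MDA-MB-175 it was 0.0144 ± 0.00232 and 0.0176 ± 0.000765 and did not pass (exact permutation p = 0.0571, adjusted 0.0571).

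**Figure D4:**
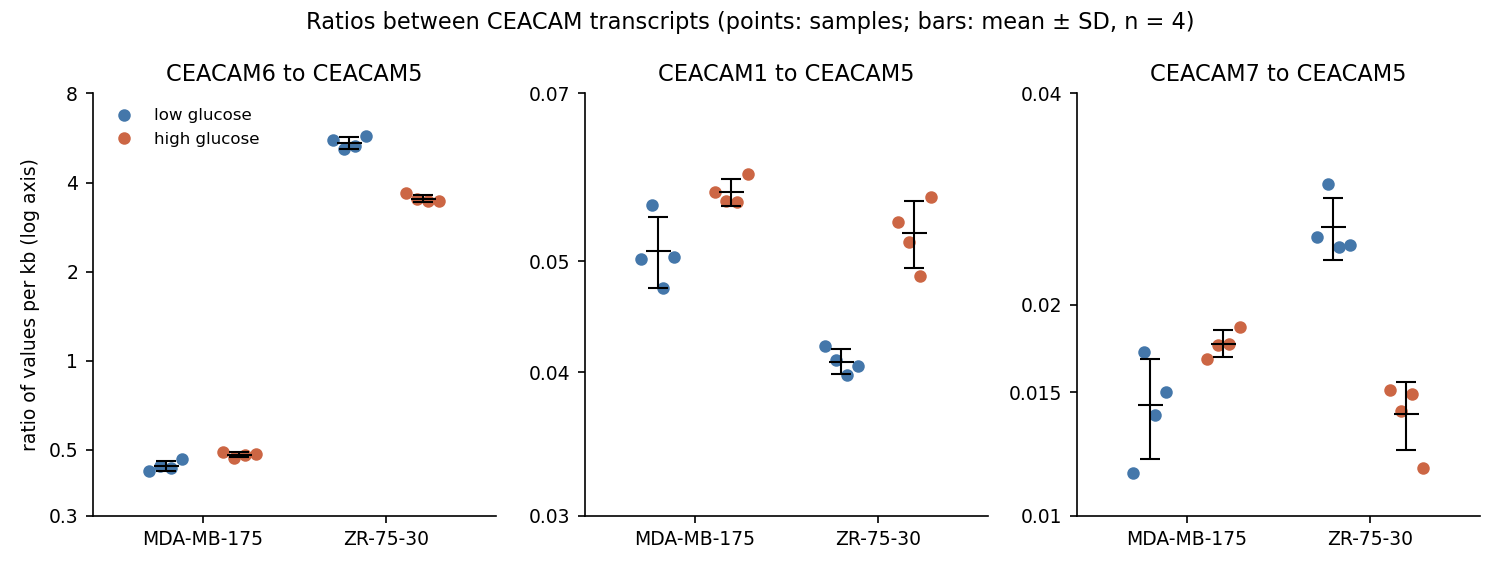
Ratios of CEACAM6, CEACAM1 and CEACAM7 to CEACAM5, each as values per kb of exon, in the samples of MDA-MB-175 and ZR-75-30 (log axes, points are samples, bars are mean ± SD of 4). CEACAM6 to CEACAM5 lies between 0.426 and 0.493 in MDA-MB-175 and falls from 5.21 to 5.76 in low glucose to 3.46 to 3.68 in high glucose in ZR-75-30.

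Between lines, each of CEACAM1, CEACAM5 and CEACAM6 kept 1 order of the lines in both arms. CEACAM1 and CEACAM5 were highest in MDA-MB-175, then ZR-75-30, then HCC1500, and CEACAM6 was highest in ZR-75-30, then MDA-MB-175. Such differences are common, with 63.8% of genes called between MDA-MB-175 and ZR-75-30 at low glucose and 65.8% at high glucose, 72.6% and 73.5% between MDA-MB-175 and HCC1500, and 73% and 73.7% between ZR-75-30 and HCC1500.

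CEACAM1 was higher in MDA-MB-175 than in ZR-75-30 by 1.23 ± 0.09 on the log2 scale at low glucose (limma adjusted p = 7.0e-11) and by 1.52 ± 0.09 at high glucose (1.6e-12). Against HCC1500, ZR-75-30 was higher by 1.63 ± 0.09 at low glucose and 3.29 ± 0.09 at high glucose (limma adjusted p = 2.7e-13 and 5.9e-19).

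CEACAM5 was higher in MDA-MB-175 than in ZR-75-30 by 0.92 ± 0.16 at low glucose and 1.40 ± 0.16 at high glucose (limma adjusted p = 3.6e-05 and 9.4e-08). CEACAM6 was lower in MDA-MB-175 than in ZR-75-30, with log2 differences of -2.71 ± 0.25 and -1.47 ± 0.25 (limma adjusted p = 1.7e-09 and 1.6e-05). Both were far above HCC1500 in the other lines, with limma adjusted p of 8.8e-20 or lower, and their fitted differences from HCC1500 depend on the pseudocount.

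The deposited means of CEACAM7 kept the same order of lines, but MDA-MB-175 and ZR-75-30 were not told apart at low glucose. CEACAM19 did not keep its order. At low glucose CEACAM7 was at 49.9 ± 7.06 in MDA-MB-175 and 47.5 ± 6.38 in ZR-75-30, a difference within the spread (log2 0.07 ± 0.18, limma adjusted p = 0.778), which was called at 0.27 after scaling to CPM (limma adjusted p = 0.0257) and was -0.02 after scaling by the median of ratios. At high glucose it was higher in MDA-MB-175 by 1.70 ± 0.18 (limma adjusted p = 2.7e-08).

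At low glucose CEACAM19 was higher in ZR-75-30 than in MDA-MB-175 and HCC1500, with log2 differences of -0.88 ± 0.25 for MDA-MB-175 minus ZR-75-30 and 1.28 ± 0.25 for ZR-75-30 minus HCC1500 (limma adjusted p = 0.00375 and 7.9e-05). At high glucose MDA-MB-175 was at 12.8 ± 3.23, HCC1500 at 14.9 ± 4.84 and ZR-75-30 at 15.9 ± 2.43, and no pair passed the test (limma adjusted p = 0.283, 0.522 and 0.656). Its difference between ZR-75-30 and HCC1500 at high glucose was 0.13 as deposited and -0.13 after scaling to CPM. The median over all genes of ZR-75-30 minus HCC1500 at low glucose was itself -0.23 as deposited, -0.43 in CPM and -0.11 by the median of ratios, so line differences are relative to the scaling.

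A further 3 genes of the table bear a CEACAM symbol, and CEACAMP10 was at 0 throughout. CEACAM3, the phagocytic receptor of granulocytes and the relative with most windows shared with CEACAM1, had 11.6, 10.1, 12.5 and 11.2 in MDA-MB-175 low glucose and 22.9, 23.9, 18.3 and 15.8 in high glucose. It rose with the members there (log2 change 0.77 ± 0.19, limma adjusted p = 0.00735), and its low values are open to reads shared with CEACAM1, CEACAM5 and CEACAM6. In ZR-75-30 it was at 3.58 ± 1.66 and 1.36 ± 0.61 (SD, n = 4, limma adjusted p = 0.0535), and it was listed at 0 in every HCC1500 sample. CEACAM21 stayed at or below 3.38 in all samples and was not called in either line where it was tested (limma adjusted p = 0.878 and 0.456).

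The 7 PSG genes in the table had means of 0.905 or less at low glucose in MDA-MB-175 and ZR-75-30. Those tested there, other than PSG5 in MDA-MB-175, passed the filter on low values through their high-glucose samples and so had to differ, and values are given in place of counts. PSG5 was at 0.905 ± 0.428 and 134 ± 9.92 in MDA-MB-175 low and high glucose, and PSG9 at 0 in all low-glucose samples and 111 ± 9 in high glucose. The other 5 had 0 in low glucose and means of 0.982 to 56.5 in high glucose. In ZR-75-30 PSG4 went from 0.138 ± 0.277 to 15.9 ± 1.84 and PSG9 from 0.284 ± 0.569 to 10.1 ± 3.37, PSG5 was at 0 and 0.83, and the other 4 were listed at 0. In HCC1500 PSG9 was above the filter in both arms (4.27 ± 0.578 to 13.6 ± 4.95, log2 1.41 ± 0.26, limma adjusted p = 0.00611, where 7.46% of all genes were called higher), and the others had means of 3.09 or less.

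Genes that act with the family were counted from lists drawn up by role, beside 2030 genes higher and 2338 lower of 17029 in MDA-MB-175, 3700 and 3590 of 15834 in ZR-75-30, and 1221 and 2129 of 16361 in HCC1500. Without high-glucose replicate 3, 3390 genes (20.9%) were higher and 6114 (37.7%) lower of 16235 in HCC1500, which is the background for the list counts given without it. The 30 genes that build and remodel the GPI anchor, which CEACAM5, CEACAM6 and CEACAM7 need to reach the surface, were all tested. In MDA-MB-175, 1 was higher and 9 were lower, including PIGS, a subunit of the GPI transamidase (722 to 584, log2 -0.30 ± 0.05, limma adjusted p = 1.8e-04), and PGAP3, a remodelling enzyme (201 to 157, -0.34 ± 0.09, 0.00837). In ZR-75-30, 3 were higher and 8 lower, with PIGW and PIGM at -0.87 ± 0.14 and -0.80 ± 0.06 (limma adjusted p = 5.2e-05 and 2.1e-09). In HCC1500, 1 was higher and 6 lower, or 1 and 20 without high-glucose replicate 3 (20.9% and 37.7% of all genes), with PIGN at -0.80 ± 0.12 and PIGX at -0.61 ± 0.12 (limma adjusted p = 0.00227 and 0.00847). The median changes were -0.15, -0.10 and -0.19 beside -0.02, 0.01 and -0.06 over all genes, and without that replicate -0.40 in HCC1500 beside -0.12.

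Among 22 signalling and binding partners of CEACAM1, 3 were higher and 2 lower of 20 tested in MDA-MB-175, 8 and 5 of 18 in ZR-75-30, and 0 and 3 of 19 in HCC1500 (2 and 12 without high-glucose replicate 3, where 20.9% and 37.7% of all genes were called). INSR, the insulin receptor, rose in MDA-MB-175 from 461 ± 23.6 to 791 ± 34.9 (log2 0.78 ± 0.05, limma adjusted p = 1.1e-08), and ITGA5, an integrin subunit, from 114 to 180 (0.66 ± 0.07, 4.7e-06). In ZR-75-30 the kinase FYN went from 10.3 to 39.7 (1.83 ± 0.21, limma adjusted p = 1.2e-06) and TPM2, a tropomyosin, from 4.23 to 15.3 (1.70 ± 0.37, 8.6e-04). In HCC1500, CALM3 (calmodulin) fell from 1785 to 1299 (log2 -0.48 ± 0.14, limma adjusted p = 0.0416) and FLNA (filamin A) from 3900 to 2978 (-0.39 ± 0.08, 0.0112). Without high-glucose replicate 3 these changes were -0.63 (limma adjusted p = 2.7e-12) and -0.35 (1.2e-07). The median changes over the partners were 0.06, 0.23 and -0.15.

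Regulators of CEACAM transcription and splicing, 19 of 22 in the table and tested, gave 3 higher and 5 lower in MDA-MB-175, 6 higher and 10 lower in ZR-75-30, and 2 of each in HCC1500 (7 and 7 without high-glucose replicate 3, against 20.9% and 37.7% of all genes), with medians of 0.04, -0.16 and 0.01. IRF1, a transcription factor of the interferon response, rose in MDA-MB-175 (103 to 177, log2 0.78 ± 0.08, limma adjusted p = 4.4e-06) and in ZR-75-30 (16.1 to 44, 1.39 ± 0.19, 5.9e-06). SMAD3, a mediator of TGF-beta signals, rose in MDA-MB-175 (670 to 1175, log2 0.81 ± 0.04, limma adjusted p = 1.4e-09), and HNRNPM, a splicing factor, fell in ZR-75-30 (1512 to 848, -0.83 ± 0.05, 5.2e-11). In HCC1500 the transcription factor KLF4 rose (38.5 to 81.4, 1.05 ± 0.15, limma adjusted p = 0.00219) and the epithelial splicing factor ESRP2 fell (1199 to 825, -0.54 ± 0.08, 0.00193).

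Other adhesion genes of the immunoglobulin superfamily, 30 of 32 in the table, gave 7 higher and 9 lower of 27 tested in MDA-MB-175, 9 and 5 of 23 in ZR-75-30, and 6 and 5 of 24 in HCC1500 (9 and 12 without high-glucose replicate 3, beside 20.9% and 37.7% of all genes), with medians of -0.12, 0.12 and -0.14. L1CAM, a neural adhesion molecule, rose in MDA-MB-175 from 305 ± 26.1 to 790 ± 22.6 (log2 1.37 ± 0.06, limma adjusted p = 8.3e-11), and ICAM1, a leukocyte-binding molecule, from 6.92 to 20.7 (1.42 ± 0.23, 2.2e-04). CD47 rose in ZR-75-30 from 388 to 605 (0.64 ± 0.04, limma adjusted p = 6.1e-10) and ESAM from 2.31 to 12.4 (2.07 ± 0.32, 2.8e-05). In HCC1500, MCAM rose from 21.8 ± 2.89 to 103 ± 8.21 (2.19 ± 0.14, limma adjusted p = 4.4e-05) and CADM2 fell from 64 to 28.9 (log2 -1.13 ± 0.13, 7.5e-04).

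Of 38 genes within 250 kb of a member, CEACAM and PSG genes left out, 5 were higher and 5 lower of 34 tested in MDA-MB-175, 5 and 8 of 33 in ZR-75-30, and 2 and 3 of 32 in HCC1500. The shares of all genes called higher and lower were 11.9% and 13.7% for MDA-MB-175, 23.4% and 22.7% for ZR-75-30, with 7.46% and 13% for HCC1500. Without high-glucose replicate 3 the neighbours of HCC1500 gave 5 and 15 of 32, beside 20.9% and 37.7% of all genes. The largest changes among those called with a mean of at least 10 were those of APOE, an apolipoprotein gene 221.4 kb from CEACAM19 (4.57 to 14.5 in HCC1500, log2 1.39 ± 0.34, limma adjusted p = 0.0199), and LIPE, the hormone-sensitive lipase gene 79.9 kb from CEACAM1 (82 to 33.2 in ZR-75-30, -1.28 ± 0.12, 7.5e-08). LIPE was also lower in MDA-MB-175, where CEACAM1 rose (110 to 86, log2 -0.35 ± 0.11, limma adjusted p = 0.0323). It was lower in HCC1500 too, where CEACAM1 fell (7.85 to 4.08, log2 -0.84 ± 0.23, limma adjusted p = 0.0354).

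Across the 24 samples, the genes whose log2(value + 1) was most like that of each member were sought among 13302 genes with a mean of at least 10. The 3 lines give most of this spread, and the correlations are a description without a test. CEACAM5 was most like SCNN1A (r = 0.998), MGST2 (0.998) and MTHFD1L (0.997), and CEACAM6 like CALD1 (0.996), SYT17 (0.996) and FAIM2 (0.995). CEACAM1 was most like PTPN3 (0.992), NPAS2 (0.992) and TNFRSF21 (0.991), and CEACAM7 like KRT7 (0.989), INHBB (0.987) and TRIM16 (0.986). CEACAM19, whose lines differed least, had lower values, with TMPRSS2 (0.872), NR1D1 (0.863) and SQSTM1 (0.847). For example, SCNN1A, a subunit of the epithelial sodium channel, averaged 2881 in low and 3558 in high glucose in MDA-MB-175, whereas ZR-75-30 had 1975 and 2366 and HCC1500 had 65.4 and 61.5.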

How the data were processed

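RNA was sequenced from 24 samples of 3 cell lines. The deposited table holds normalized values that the authors made by dividing whole reads per gene by 1 factor per sample (a normalised signal, not CPM), since 100% of the values in each sample were whole multiples of the worth of 1 read, within 0.02 of a read. The labels name hg38 and edgeR, while the study's methods, written for its tumors, name an older build and Ensembl IDs, so which of them made this table is not given in the sources used here. Groups came from the labels. Values were read with 9 split symbols repaired.

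Tests used limma 3.58.1 (R 4.3.3) with an intensity trend on log2(value + 1), for genes at 0.5 or more in at least 4 fitted samples, with Benjamini-Hochberg adjustment over all genes tested and a threshold of 0.05. Glucose was tested in 8 samples per line, and responses and lines in 1 model of 24. The replicate numbers do not pair the samples. Fold changes on this scale understate the change of low genes. Alternatives were other pseudocounts (0.1 and 5), filters, scalings, a replicate block, each sample left out, and edgeR 4.0.16 and DESeq2 1.42.0 on recovered reads. For HCC1500 edgeR called 3576 genes (limma 3350), for MDA-MB-175 it called 4402 (limma 4368) and for ZR-75-30 it called 7397 (limma 7290). The fits were tested on simulated data with 200 changed genes.

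The members and lists were chosen with earlier results of these data known. Beside all members, other CEACAM genes that passed the filter were named, and in each list the 2 called genes with the largest change and a mean of at least 10 in either arm. Neighbours followed that rule over the 3 lines together. Of 18889 IDs, 18183 matched GENCODE. CEACAM19 was not in the promoter table used here.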

Additional observations from a re-analysis of the deposited data

Results flagged for a closer look

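Of 30 groups of 4 values tested, 3 had a sample far from the others by Dixon's criterion at the 95% level, and chance flags about 1 in 20. CEACAM1 was at 25.4 in HCC1500 high-glucose replicate 4. CEACAM6 was at 3.83 in HCC1500 low-glucose replicate 3, from 10 reads. CEACAM7 was at 0.743 in HCC1500 high-glucose replicate 3, from 1 read, with the other 3 samples at 0.

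The change with glucose differed between the 3 lines by the F test of limma for CEACAM1 (adjusted p = 6.2e-10), CEACAM7 (9.6e-07), CEACAM6 (0.00526) and CEACAM19 (0.0461). CEACAM1 was higher in every high-glucose sample than in any low-glucose sample of the same line, except in HCC1500, where every one was lower. For CEACAM19 the call was lost in 15 of 24 fits that left out 1 sample.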

How the results depend on the processing

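Counts of called members were within 1.5 times those reported in 163 of 165 refits. The exceptions came from fitting all 24 samples together, which pools the spread over lines: 2 members were called in ZR-75-30 and 5 in HCC1500. In that fit CEACAM6 was not called in MDA-MB-175 (limma adjusted p = 0.0607) or ZR-75-30 (0.15), nor was CEACAM5 in ZR-75-30 (0.653). Smaller losses lay within that margin. The same fit called 4 members in MDA-MB-175. In HCC1500, 2 were called with a stricter filter (5 or more in at least 4 samples) and in CPM, where CEACAM7 was no longer tested. With 1 sample left out at a time the counts stayed at 5 called in MDA-MB-175, 4 in ZR-75-30, 3 in HCC1500, and 13 and 12 for the line comparisons at low and high glucose, and 3 to 4 for the F test, which was called for 5 members by edgeR, by DESeq2 and in CPM. CEACAM5 was called by it with a pseudocount of 5 (0.00162) and in CPM (5.3e-04).

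Of 1866 refitted single values, 16 changed sign and none of these passed the test after the change, while the CEACAM7 response of ZR-75-30 against HCC1500 had passed before. CEACAM7, MDA-MB-175 minus ZR-75-30 at low glucose, was -0.02 by the median of ratios, -0.04 by edgeR and -0.04 by DESeq2, and -0.00 to 0.16 with samples left out. CEACAM19, ZR-75-30 minus HCC1500 at high glucose, was -0.13 in CPM, -0.17 at the mean total, and -0.08 to 0.30 with samples left out. The response of CEACAM5, MDA-MB-175 minus HCC1500, was -0.32 with a pseudocount of 0.1, -0.17 by edgeR, -0.20 by DESeq2, and -0.17 to 0.29 with samples left out. Against HCC1500, the response of CEACAM6 in ZR-75-30 was -0.25 with a pseudocount of 5, -0.32 in CPM, and -0.20 to 0.42 with samples left out, and that of CEACAM7 was -0.16 and -0.19 with those settings. The cause was not tested.

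The CEACAM7 response of ZR-75-30 against HCC1500 lost its call without any of 8 samples (ZR-75-30 low 4, high 1 and high 3, HCC1500 low 2, low 4, high 1, high 2 and high 4, adjusted p 0.0502 to 0.0646). The CEACAM19 F test kept its call without MDA-MB-175 low 2, low 4, high 2 or high 4, ZR-75-30 low 2 or high 3, or HCC1500 low 2, low 3 or high 2, and lost it without any other sample, and with a pseudocount of 0.1 (0.0539) or 5 (0.0611). CEACAM6 and CEACAM7 lost the response difference of MDA-MB-175 and ZR-75-30 with a pseudocount of 0.1 (adjusted p = 0.405 and 0.112).

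Samples with the same number did not vary together (mean correlation of deviations 0.04, 0.01 and 0.02 by line, from -0.04 to 0.11). With the replicate number as a block, 5, 4 and 3 members were called in the lines, and 2 response differences were not (CEACAM6, MDA-MB-175 minus ZR-75-30, adjusted p = 0.0767, and CEACAM19, ZR-75-30 minus HCC1500, adjusted p = 0.0534), nor was CEACAM19 by the F test (0.112).

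Depth limits HCC1500 most, where 3 reads were the floor and CEACAM5, CEACAM6 and CEACAM7 had 1 to 26 reads per arm.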
